A study of Homo sapiens with 12 samples.

Results

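The genes described here encode the machinery of RNA polymerase I and RNA polymerase III in CUTLL1 cells: the subunits of both enzymes, the subunits they share, the factors that bring them to their promoters and the Pol III repressor MAF1. They were chosen by name, as the rows of the deposited table whose Ensembl identifier belongs to 1 of 40 gene symbols and whose value was at least 10 in at least 3 libraries. All 40 were found and kept, of 19281 genes kept among 62069 identifiers. They fall into 6 Pol I subunits, 2 subunits shared by Pol I and III, 5 shared by all nuclear polymerases, 10 Pol III subunits, 6 Pol I initiation factors, 10 Pol III initiation factors and MAF1.

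CUTLL1 comes from a human T-cell leukaemia and carries a rearranged, constitutively active NOTCH1. The cells were given either solvent (DMSO) or Compound E at 1 µM, which inhibits the protease gamma-secretase (GSI, for gamma-secretase inhibitor) that releases the active NOTCH1 fragment, and were harvested after 12 h or 48 h. Polyadenylated RNA was sequenced from 3 libraries in each of 4 groups, labelled DMSO 12 h, DMSO 48 h, GSI 12 h and GSI 48 h, all grown in RPMI with 20% fetal bovine serum. The study is limited to 1 cell line, and since separate cultures are not stated for the libraries of a group, each p-value reflects library-to-library spread, which may be technical.

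RNA polymerase I transcribes the long ribosomal RNA precursor in the nucleolus, while RNA polymerase III transcribes tRNAs, 5S ribosomal RNA and other short RNAs. Each enzyme has its own catalytic subunits, shares an assembly platform and small subunits with the others, and needs its own initiation factors. Growing cells use both to build ribosomes, and MYC is known to promote transcription by both. The libraries measured messenger RNA of the machinery, not its protein or its products, since ribosomal and transfer RNAs carry no poly-A tail.

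The labels were first checked against the pathway that Compound E blocks. All 11 of 11 NOTCH1 target genes changed more between the time labels than between the treatment labels, against what the labels GSI and DMSO say. Between treatment labels 9 of the 11 estimates were below 0 at 12 h and 10 at 48 h. Of the 11, 5 were called lower (limma, adjusted p under 0.05) at 12 h and 3 at 48 h, and 0 higher. The shares of all genes called lower were 11.4% and 5.35%. Over time 10 of 11 were called lower in DMSO and 11 of 11 in GSI, where 4.53% and 3.98% of all genes were called. NRARP, a direct NOTCH1 target, was at 36766, 49346 and 40943 normalised counts in DMSO 12 h, 16831, 25383 and 23575 in GSI 12 h, 3186, 3564 and 2340 in DMSO 48 h and 1995, 1776 and 1333 in GSI 48 h. These genes stayed high in the libraries labelled GSI 12 h and were low in those labelled DMSO 48 h. The doubt is whether these 2 groups carry each other's labels, which was not tested. If they do, the 12 h comparison of treatment labels would be one over time in DMSO and the 48 h comparison one over time in GSI, and the comparisons over time would be those of treatment, so every treatment or time direction below holds for libraries as labelled. The comparison of GSI 48 h with DMSO 12 h, which uses neither group, is given beside the others although it differs in both label and time. Recovered reads ranged from 73939612 to 160702764 per library. All 9 of 9 T-cell markers were kept, with values of 700 to 115361, against 1 of 4 B-cell markers, of which CD79A reached 3042, and 3 of 5 myeloid markers, which reached 490, while the defining erythroid and fibroblast genes stayed at or below 10.3. A list of 14 hypoxia-induced genes moved with the treatment label. Its median per library, on the log2 scale relative to all libraries, was -0.93, -1.18 and -0.97 in DMSO 12 h, -1.13, -1.24 and -0.92 in DMSO 48 h, 1.95, 0.34 and 2.40 in GSI 12 h and 1.28, -0.16 and 0.68 in GSI 48 h. The libraries numbered 2 were the lowest of each GSI group. The part of this response in the results below was not tested.

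Promoters of the members are shown first, because many members moved together. RefSeq (build GRCh38.p14) held a promoter for 33 of the 40 genes, 47 promoters in all, each taken as 250 bases before to 50 bases after a start. The letters CACGTG, the E-box bound by MYC and its partner MAX, which read the same on both strands, stood in 7 of the 47 promoters (14.9%) and in 2548 of 35116 promoters of all genes (7.26%). The matches, with 12 bases on either side and the E-box in capitals, were:

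POLR3C: gcccgcgtcggtCACGTGagttggccaggc

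GTF3C2: ccggaccaagcaCACGTGtttaccttgtgc

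GTF3C6: gtggcgagtctcCACGTGggtaccggcgct

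GTF3C4: ggcccgggacccCACGTGggacgcgcgagg

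POLR3A: agaggaagcggaCACGTGggacactctacg

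POLR3E: cccgctccccccCACGTGtccgccggagtt

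POLR1G: cccctttggatcCACGTGgtctgcaacctg

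These windows lie at chr1:145823992-145824021 (plus strand, POLR3C), chr2:27356850-27356879 (minus, GTF3C2), chr6:110958552-110958581 (plus, GTF3C6), chr9:132669988-132670017 (plus, GTF3C4), chr10:78029533-78029562 (minus, POLR3A), chr16:22297396-22297425 (plus, POLR3E) and chr19:45406620-45406649 (plus, POLR1G). The E-box began 196 bases before the start in POLR3C, 142 in GTF3C6, 103 in GTF3C2, 35 in GTF3C4 and POLR3A, 12 in POLR1G and 1 in POLR3E. Of these genes POLR3A, POLR3C and POLR3E encode Pol III subunits, GTF3C2, GTF3C4 and GTF3C6 encode subunits of the Pol III factor TFIIIC, and POLR1G encodes a Pol I subunit. All 7 were called lower in GSI 12 h than in DMSO 12 h, with a median log2 change of -0.50, as were 13 of the 26 members that had a promoter and no match, with a median of -0.37. At 48 h the counts were 3 of 7 and 5 of 26, and over time in DMSO 1 of 7 and 4 of 26. Between GSI 48 h and DMSO 12 h, which uses neither doubted group, they were 7 of 7 and 19 of 26. The medians there were -0.63 and -0.48. Whether these shares differ was not tested. Of all genes 11.4% were called lower at 12 h and 5.35% at 48 h. The share was 2.51% over time in DMSO and 18.4% between GSI 48 h and DMSO 12 h. Under upper-quartile scaling over genes kept POLR3A and GTF3C2 lost the 12 h call (log2 -0.21, adjusted p = 0.0609 and log2 -0.22, adjusted p = 0.0617). MYC itself was at 25699, 29455 and 26307 normalised counts in DMSO 12 h, 11743, 13159 and 12150 in DMSO 48 h, 16713, 17487 and 22427 in GSI 12 h and 8180, 10756 and 10346 in GSI 48 h. It stood lower in DMSO 48 h than in GSI 12 h, the order of the NOTCH1 targets. Of the 7 E-box genes only POLR3E had that order of means, at 10893 in DMSO 48 h and 10976 in GSI 12 h. The others had the opposite order, as POLR3C (4275 and 3251) and GTF3C6 (5791 and 3861). Whether these genes follow MYC was not tested.

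The promoters of both catalytic subunits of Pol I held no E-box. They are shown whole, from 250 bases before the start to the base before it, since these genes had some of the largest falls. POLR1A lies on the minus strand, chr2:86105887-86106136, and 43.2% of these bases are G or C. For POLR1B the first of 2 listed starts is shown, on the plus strand at chr2:112541786-112542035, where 63.6% are G or C and the letters TGGGAA, the core read by the NOTCH1 partner RBPJ, occur on the other strand, in capitals as TTCCCA.

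POLR1A: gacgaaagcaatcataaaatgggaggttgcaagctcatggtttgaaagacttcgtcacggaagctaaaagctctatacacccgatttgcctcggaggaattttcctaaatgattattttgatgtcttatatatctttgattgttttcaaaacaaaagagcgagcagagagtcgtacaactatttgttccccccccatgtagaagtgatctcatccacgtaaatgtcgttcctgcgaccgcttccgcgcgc

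POLR1B: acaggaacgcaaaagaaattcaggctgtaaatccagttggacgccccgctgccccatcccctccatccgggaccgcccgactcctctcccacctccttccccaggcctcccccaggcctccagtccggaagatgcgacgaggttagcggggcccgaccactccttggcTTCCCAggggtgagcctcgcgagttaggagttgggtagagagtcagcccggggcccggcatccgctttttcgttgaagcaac

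TGGGAA on either strand stood in 7 of the 47 promoters, 14.9%, those of 6 genes, POLR1B, POLR1F, POLR1H, POLR3B, POLR3F and GTF3C3, against 24.0% of the promoters of all genes. The letters GGTTCGA on either strand, the core of the B box of tRNA genes that TFIIIC recognises, stood in the promoters of POLR3E, TAF1C and the TFIIIC gene GTF3C1, 3 of 47 (6.38%), against 302 of 35116 (0.860%). In POLR3E, a Pol III subunit, the match began 209 bases before the start, on the plus strand within chr16:22297159-22297408, where 68.4% of bases are G or C. In TAF1C, a subunit of the Pol I factor SL1, it lay on the other strand, 170 bases before the start, at chr16:84187211-84187236 (minus), and in GTF3C1 likewise 232 bases before it, at chr16:27550129-27550154 (minus). The match is in capitals:

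POLR3E: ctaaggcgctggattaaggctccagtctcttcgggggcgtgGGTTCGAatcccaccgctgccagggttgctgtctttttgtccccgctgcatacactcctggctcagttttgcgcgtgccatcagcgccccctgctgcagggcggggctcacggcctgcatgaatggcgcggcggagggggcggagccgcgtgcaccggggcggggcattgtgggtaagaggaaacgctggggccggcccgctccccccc

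TAF1C: atgtgggatTCGAACCtaagtccacc

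GTF3C1: tccgggagcTCGAACCggaagcggcc

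A match of letters is a description and shows no binding. Whether any of these matches lies within a neighbouring tRNA gene was not checked. The GGTTCGA count of 3 of 47 may therefore include letters that belong to such a gene. POLR3E was called lower in GSI 12 h (log2 -0.50, adjusted p = 0.00403) while TAF1C and GTF3C1 were not called (log2 -0.04, adjusted p = 0.800 and log2 -0.09, adjusted p = 0.516).

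Across the 40 genes, 34 had their highest group mean in DMSO 12 h and 29 their lowest in GSI 48 h, and 23 followed the order DMSO 12 h, DMSO 48 h, GSI 12 h, GSI 48 h from high to low. For 25 genes both changes between treatment labels were larger than both changes between time labels, and for 5 (POLR1D, POLR2E, POLR2H, TAF1C and GTF3C5) the reverse held. This tally rests on the labels of GSI 12 h and DMSO 48 h, and exchanging them would turn it to 25 genes for time and 5 for treatment. The member medians, each gene set against its mean over the 12 libraries, were 0.16, 0.40 and 0.28 in DMSO 12 h, -0.0030, 0.11 and 0.09 in DMSO 48 h, -0.18, 0.03 and -0.14 in GSI 12 h and -0.38, -0.09 and -0.24 in GSI 48 h. The library numbered 2 was the highest of its group for 33 members in DMSO 12 h, 24 in DMSO 48 h, 32 in GSI 12 h and 33 in GSI 48 h. The shares of all genes with the same group order, larger changes or highest library were not counted. These tallies therefore do not set the members apart from other genes. In RNA from many cells, fewer cells that express a gene and less of its RNA per cell cannot be told apart.

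**Figure D1:**
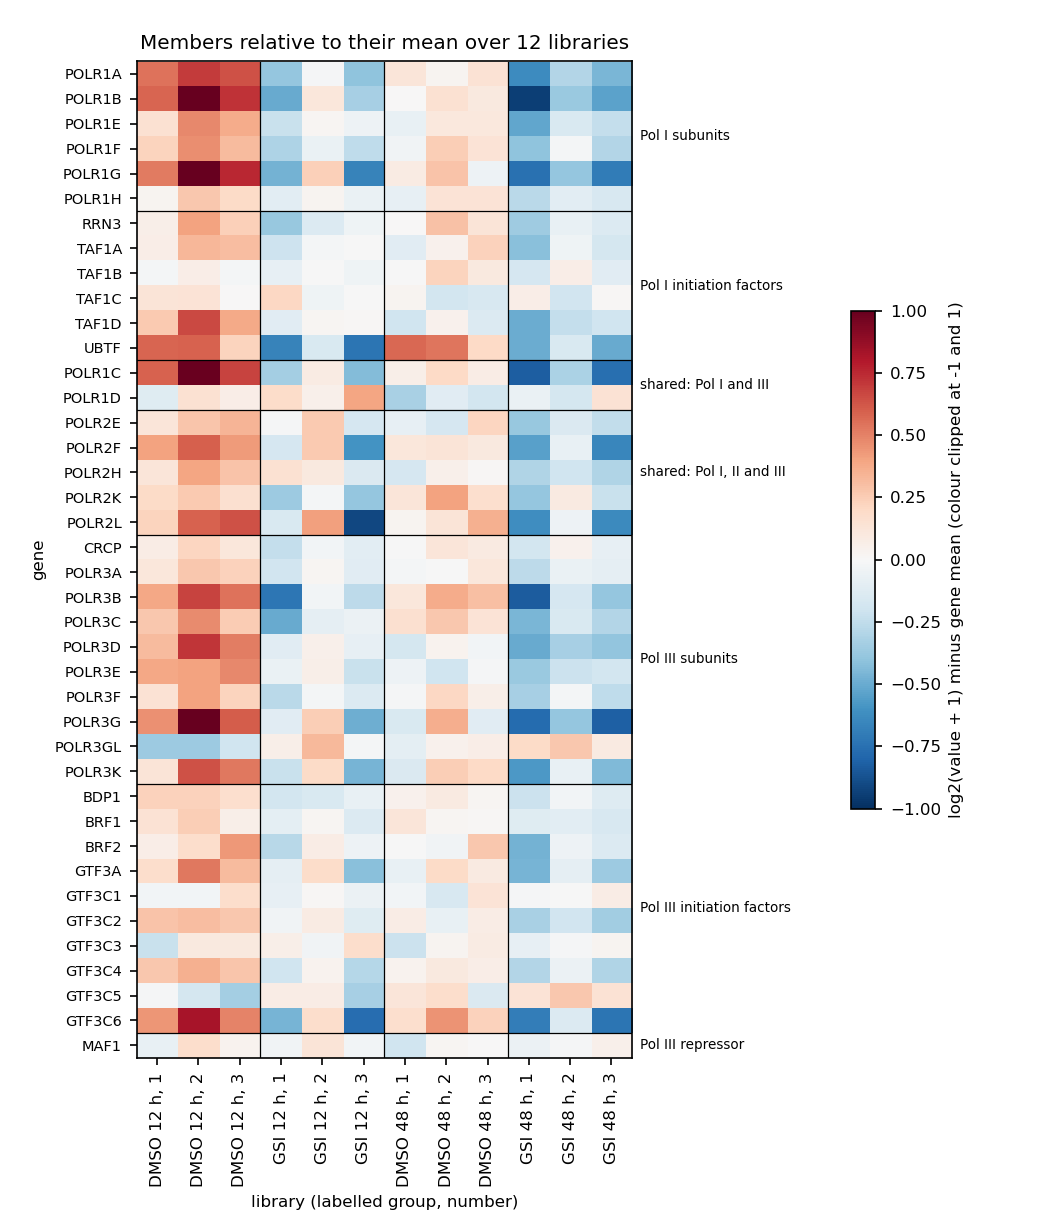
Heat map of the 40 genes (rows, by class) in the 12 libraries (columns, by labelled group and number). Colour is log2(value + 1) minus the gene's mean over libraries, red above and blue below, clipped at -1 and 1. The DMSO 12 h columns are mostly red, with POLR3GL and GTF3C5 among the exceptions, and the GSI 48 h columns are mostly blue.

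Most of the machinery was lower in GSI 12 h than in DMSO 12 h. Of the 40 genes 24 fell and 1, the Pol III subunit POLR3GL, rose, at an adjusted p under 0.05 (limma, Benjamini-Hochberg over all genes kept, here and for every adjusted p below). Of all genes 21.5% were called, 11.4% lower and 10.1% higher. The member median was -0.42 on the log2 scale, and the groups did not overlap for 25 members that were lower, against 19.3% of all genes. The fold reached 2 for POLR1B and POLR1G only. The share of all genes called higher depended on the scaling, with 1943 higher and 2201 lower as deposited, 2536 and 1585 after upper-quartile scaling over genes kept and 1441 and 3704 after scaling over all genes with a read. Of the members those scalings called 22 and 31, of which 21 and 30 were lower. The count fell to 13 without the DMSO 12 h library numbered 2, to 14 without GSI 12 h number 1 and to 16 without GSI 12 h number 3, and 13 calls held whichever of the 12 libraries was left out: POLR1A, POLR1B, POLR1C, POLR1F, POLR1G, UBTF, POLR3B, POLR3C, POLR3D, POLR3E, BDP1, GTF3C4 and GTF3C6. Each of the other 12 was lost when at least 1 library was left out. Calls over all genes moved likewise, from 4144 to 1761 without DMSO 12 h number 2. They moved to 1599 and 2341 without GSI 12 h number 1 and 3. With only the 12 h groups fitted 18 members were called, without POLR3GL, RRN3, POLR3A, POLR3F, POLR3K, GTF3A and GTF3C2. Calls over all genes moved likewise in that fit, from 4144 to 2607.

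Between GSI 48 h and DMSO 48 h the same direction was seen with fewer calls. Here 8 of 40 members were called, all lower: POLR1A, POLR1B, POLR1C, UBTF, POLR3B, POLR3C, GTF3C2 and GTF3C6. Of all genes 9.68% were called and 5.35% were called lower. The median was -0.29, and 25 members had groups that did not overlap and were lower, against 18.5% of all genes. Of all genes 834 were higher and 1032 lower as deposited, against 1220 and 682 after upper-quartile scaling over genes kept and 741 and 1794 over all genes with a read, and those scalings called 7 and 16 members, all lower. With the replicate number as a block 24 members were called, all lower, against 15.5% of all genes. The numbers were taken to pair the libraries of these groups, although their correlations were low (0.103 to 0.157). The block spans all 12 libraries, and equal numbers correlated more within the labels (0.545 to 0.612 in DMSO and 0.400 to 0.545 in GSI). The part of each in these calls was not tested. The count without a block changed with the library left out. It was 0, 1 and 3 without DMSO 48 h number 1, 2 and 3. It was 0, 17 and 0 without GSI 48 h number 1, 2 and 3, and 15 without GSI 12 h number 2. Calls over all genes moved likewise, from 1866 to 204, 405 and 889 without the DMSO 48 h libraries in that order. They moved to 136, 3036 and 119 without the GSI 48 h libraries and to 2729 without GSI 12 h number 2. The member median stayed between -0.37 and -0.23 in the fits that left out 1 library. Each of the 8 calls was lost when at least 1 library was left out.

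Over time within the libraries labelled DMSO, 6 of 40 members were called, all lower: POLR1A, POLR1B, POLR1C, POLR3D, POLR3E and TAF1D. Of all genes 4.53% were called, 2.51% lower. The median was -0.23, and 16 members did not overlap and were lower, against 13.1% of all genes. The block, which pairs these libraries, raised the count to 13, all lower, against 6.97% of all genes. Fitted within each treatment it called 27 members, of which 2 were higher, against 29.2% of all genes. Without DMSO 12 h number 2 and number 3 the count was 1 and 3, and without DMSO 48 h number 1, 2 and 3 it was 2, 3 and 3. Calls over all genes moved likewise, from 874 to 353 and 470, and to 497, 461 and 468, in the same order of fits. POLR3E, a peripheral subunit of Pol III, kept its call whichever library was left out (log2 -0.51, SE 0.09, adjusted p = 0.00596).

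Over time within the libraries labelled GSI limma called 0 of 40 members, with 8 at an unadjusted p under 0.05 (16.0% of all genes). Of the members edgeR also called 0 while DESeq2 called 2, against 740 and 1257 of the 19281 genes kept. Of all genes limma called 3.98%. The median was -0.13, and 4 members did not overlap and were lower, against 9.91% of all genes. With the block 7 members were called, against 10.1% of all genes, and 16, of which 2 were higher, when it was fitted within each treatment, against 28.8%. The difference between the treatment effects at 48 h and 12 h was called for 0 members by limma, edgeR and DESeq2, with 1 (POLR3E) at an unadjusted p under 0.05, against 0.0% and 4.54% of all genes. With the block within treatment 1 member was called, against 6.1% of all genes. It was POLR1A, whose fall was 0.89 at 12 h and 0.56 at 48 h on the log2 scale (difference 0.34, adjusted p = 0.0340).

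Between GSI 48 h and DMSO 12 h, which uses neither of the doubted groups, 31 of 40 members were lower and 2, POLR3GL and GTF3C5, were higher. Of all genes 34.2% were called, 18.4% lower and 15.8% higher. The member median was -0.53, and 32 members did not overlap and were lower, against 25.0% of all genes. After upper-quartile scaling over genes kept, which shifted the median of all genes by 0.13, the member median was -0.40 and 29 members were called. That scaling gave 4279 genes higher and 2525 lower, against 3056 and 3546 as deposited, while scaling over all genes with a read gave 2498 higher and 4310 lower. In this comparison 25 of the 33 calls held whichever library was left out. The comparison shares DMSO 12 h with the 12 h comparison and GSI 48 h with the 48 h comparison, so they are not independent of one another.

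**Figure D2:**
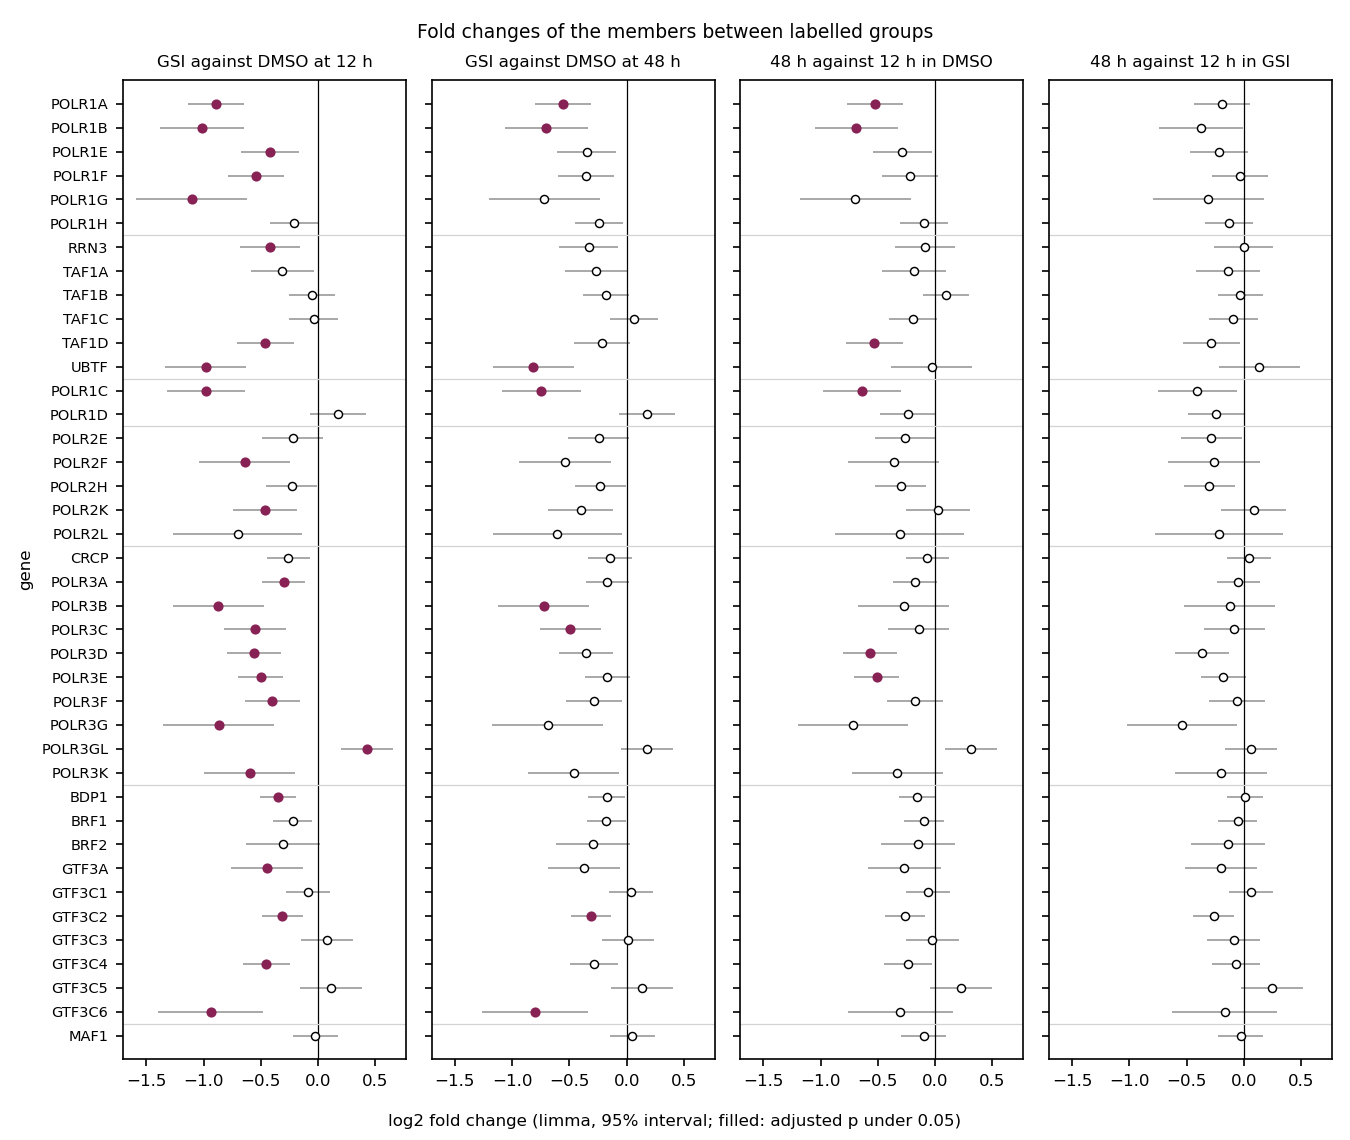
Log2 fold changes of the 40 genes (rows, by class) in the 2 comparisons of treatment labels and the 2 of time labels, as limma estimates with 95% intervals and filled points at an adjusted p under 0.05. Most points lie left of 0 at 12 h, where 24 are called lower and POLR3GL higher, and fewest are filled over time in GSI.

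Of the 6 subunits found only in Pol I, 5 fell in GSI 12 h and 2, POLR1A and POLR1B, in GSI 48 h, with class medians of -0.72 and -0.46. With the block, taken to pair the 48 h libraries on low correlations (0.103 to 0.157), all 6 were called lower at 48 h. Among them were POLR1E (log2 -0.35, adjusted p = 0.00293, against 0.0749 without), POLR1F (-0.36, 0.00202 against 0.0638) and POLR1H (-0.24, 0.0165 against 0.122). Of the 6 DESeq2 called 5. POLR1A (ENSG00000068654), the largest, catalytic subunit, was at 17506, 19483 and 18600 normalised counts in the DMSO 12 h libraries, 13057, 12223 and 13261 in DMSO 48 h, 9187, 11897 and 9069 in GSI 12 h and 7757, 9811 and 8735 in GSI 48 h. Every DMSO 12 h library lay above every other library, and the highest GSI 12 h library lay below the lowest DMSO 48 h library. Its mean fell from 18530 ± 990 (SD, n = 3) to 10051 ± 1600 at 12 h (log2 -0.89, SE 0.11, adjusted p = 0.00144), a 1.86-fold fall. At 48 h it fell from 12847 ± 550 to 8768 ± 1027 (log2 -0.56, SE 0.11, adjusted p = 0.0159), and between the DMSO groups by 0.53 (adjusted p = 0.0177). The call at 48 h was lost without DMSO 48 h number 1 or GSI 48 h number 1 or 3 (adjusted p up to 0.0869), and that between the DMSO groups without DMSO 12 h number 2 or 3 or DMSO 48 h number 1 or 2 (adjusted p up to 0.0918).

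POLR1B (ENSG00000125630) forms the active centre together with POLR1A. It was at 7684, 10297 and 8464 normalised counts in the DMSO 12 h libraries, 5133, 5678 and 5494 in DMSO 48 h, 3612, 5549 and 4058 in GSI 12 h and 2667, 3954 and 3533 in GSI 48 h. The order of the groups was that of POLR1A, but the GSI 12 h library numbered 2 reached the DMSO 48 h range. POLR1B fell 2.02-fold at 12 h (log2 -1.01, SE 0.17, adjusted p = 0.00330), 1.63-fold at 48 h (adjusted p = 0.0268) and 1.61-fold between the DMSO groups (adjusted p = 0.0359). Its 48 h call was lost without DMSO 48 h number 1, 2 or 3 or GSI 48 h number 1 or 3 (adjusted p up to 0.130), and that between the DMSO groups without DMSO 12 h number 2 or 3 or DMSO 48 h number 1, 2 or 3 or GSI 48 h number 3 (adjusted p up to 0.172). Between GSI 48 h and DMSO 12 h the fall was 2.62-fold (adjusted p = 9.36e-05).

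POLR1G and POLR1E form a dimer that helps the enzyme start and elongate. POLR1G (ENSG00000117877) had the largest fall of all members at 12 h (log2 -1.11, SE 0.23, adjusted p = 0.00660) and was at 645, 994 and 757 normalised counts in the DMSO 12 h libraries, 476, 549 and 434 in DMSO 48 h, 324, 531 and 282 in GSI 12 h and 267, 343 and 277 in GSI 48 h. The 12 h groups did not overlap, although GSI 12 h number 2 lay well above its companions. At 48 h its change of -0.72 missed the threshold without the block (adjusted p = 0.0592) and passed with it (0.00417). The change of -0.70 between the DMSO groups likewise moved from 0.108 to 0.00787. POLR1E also fell at 12 h (log2 -0.42, adjusted p = 0.0254), as did POLR1F, a subunit of the stalk (log2 -0.54, adjusted p = 0.00733). POLR1H, a small subunit needed for RNA cleavage, was not called at 12 h (log2 -0.21, adjusted p = 0.137) and was called lower between GSI 48 h and DMSO 12 h (log2 -0.34, adjusted p = 0.0171). That call was lost under upper-quartile scaling over genes kept (log2 -0.21, adjusted p = 0.0567) and without DMSO 12 h number 2 or 3 or GSI 48 h number 1 (adjusted p up to 0.0768).

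The assembly platform common to Pol I and Pol III is built from POLR1C and POLR1D, which bind one another. POLR1C fell and POLR1D did not pass the test, a difference that was not itself tested. POLR1C (ENSG00000171453) was at 4512, 5949 and 4784 normalised counts in the DMSO 12 h libraries, 3123, 3434 and 3164 in DMSO 48 h, 2375, 3180 and 2223 in GSI 12 h and 1692, 2402 and 1776 in GSI 48 h, with no overlap between the groups in either comparison of treatment labels. It fell at 12 h (log2 -0.98, SE 0.16, adjusted p = 0.00310), at 48 h (log2 -0.74, adjusted p = 0.0196) and between the DMSO groups (log2 -0.64, adjusted p = 0.0379). The call at 48 h was lost without DMSO 48 h number 1 or 2 or GSI 48 h number 1 or 3 (adjusted p up to 0.102), and that between the DMSO groups without DMSO 12 h number 2 or 3 or GSI 12 h number 1 or DMSO 48 h number 1, 2 or 3 (adjusted p up to 0.178). POLR1D was called in none of these comparisons, although the block within treatment called it lower over time in DMSO (log2 -0.24, adjusted p = 8.36e-04) and in GSI (-0.24, 8.62e-04). Its group means were 8417 ± 801 in DMSO 12 h, 9535 ± 1155 in GSI 12 h, 7118 ± 527 in DMSO 48 h and 8051 ± 918 in GSI 48 h (SD, n = 3 each). The 95% interval of its 12 h change ran from -0.07 to 0.42 and that of POLR1C from -1.32 to -0.64.

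Of the 5 subunits common to Pol I, II and III, POLR2F and POLR2K fell in GSI 12 h (log2 -0.64, adjusted p = 0.0275 and log2 -0.46, adjusted p = 0.0253). POLR2L missed the threshold (log2 -0.70, adjusted p = 0.0702), as did POLR2E and POLR2H, and limma without the block called 0 of the 5 at 48 h or over time (edgeR called 0, 0 and 0, and 4, 1 and 2 had an unadjusted p under 0.05 at 48 h, in DMSO and in GSI). The block called POLR2F and POLR2K at 48 h, and within treatment 3 of the 5 over time in DMSO and 3 in GSI. All 5 were lower in GSI 48 h than in DMSO 12 h, by 0.38 for POLR2K to 0.92 for POLR2L. The call of POLR2K was lost under upper-quartile scaling over genes kept (log2 -0.25, adjusted p = 0.102) and without DMSO 12 h number 1, 2 or 3 or GSI 48 h number 1 or 3 (adjusted p up to 0.173), and that of POLR2L without DMSO 12 h number 2 or 3 or GSI 48 h number 1 or 3 (adjusted p up to 0.0664). A list of 7 subunits found only in Pol II was measured for comparison. Of these 2 fell at 12 h, POLR2A, the catalytic subunit (log2 -0.26, adjusted p = 0.0294), and POLR2B (log2 -0.32, adjusted p = 0.0326), and 1 at 48 h, POLR2C (log2 -0.39, adjusted p = 0.0382). The list's median was -0.26 at 12 h and -0.28 at 48 h, beside -0.72 and -0.46 for the Pol I subunits and -0.53 and -0.32 for the Pol III subunits. Over time limma, edgeR and DESeq2 called 0 of the 7, with 0 at an unadjusted p under 0.05, and the medians were -0.08 in DMSO and -0.08 in GSI, while between GSI 48 h and DMSO 12 h 6 of 7 were lower, with a median of -0.33. The block called 5 of the 7 at 48 h, and within treatment 1 over time in DMSO (POLR2D) and 3 in GSI (POLR2C, POLR2I and POLR2J). These medians describe the lists, and whether they differ was not tested.

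Of the 6 Pol I initiation factors UBTF, RRN3 and TAF1D fell in GSI 12 h, and UBTF in GSI 48 h, where the block called 4, adding RRN3, TAF1A and TAF1D. UBTF (ENSG00000108312) binds the ribosomal DNA along its length and keeps it open for Pol I. It was at 46944, 47186 and 36499 normalised counts in the DMSO 12 h libraries, 46571, 45423 and 35982 in DMSO 48 h, 19713, 28242 and 18860 in GSI 12 h and 22250, 28280 and 22141 in GSI 48 h. The 6 GSI libraries did not overlap the 6 DMSO libraries, while the 2 time points of each label overlapped. The mean fell from 43543 ± 6101 to 22272 ± 5188 at 12 h (log2 -0.98, SE 0.16, adjusted p = 0.00330) and from 42659 ± 5810 to 24224 ± 3513 at 48 h (log2 -0.82, SE 0.16, adjusted p = 0.0154), SD and n = 3 each. Over time the estimates were -0.03 in DMSO (95% interval -0.38 to 0.32) and 0.14 in GSI (-0.22 to 0.49), and neither was called, although the block within treatment called the latter (adjusted p = 0.0461). The call at 48 h was lost without DMSO 48 h number 1 or 2 or GSI 48 h number 1 or 3 (adjusted p up to 0.0806).

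UBTF is given here beside the hypoxia-induced genes of the same libraries. In both GSI groups the library numbered 2 had the lowest hypoxia median, 0.34 and -0.16, and the highest UBTF, 28242 and 28280 normalised counts. The GSI 12 h libraries numbered 1 and 3, with medians of 1.95 and 2.40, held 19713 and 18860. Those of GSI 48 h, with medians of 1.28 and 0.68, held 22250 and 22141. In the DMSO libraries UBTF ran from 35982 to 47186 while the medians ran from -1.24 to -0.92. This order was not particular to UBTF, since number 2 was the highest library for 32 members in GSI 12 h and 33 in GSI 48 h. Nor was it particular to GSI, since number 2 was the highest for 33 members in DMSO 12 h and 24 in DMSO 48 h. Its hypoxia medians there, -1.18 and -1.24, were the lowest of their groups. Without the 2 GSI libraries numbered 2 the fall of UBTF was 1.17 at 12 h and 0.93 at 48 h on the log2 scale. The part of the hypoxia response in the change of UBTF was not tested.

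**Figure D3:**
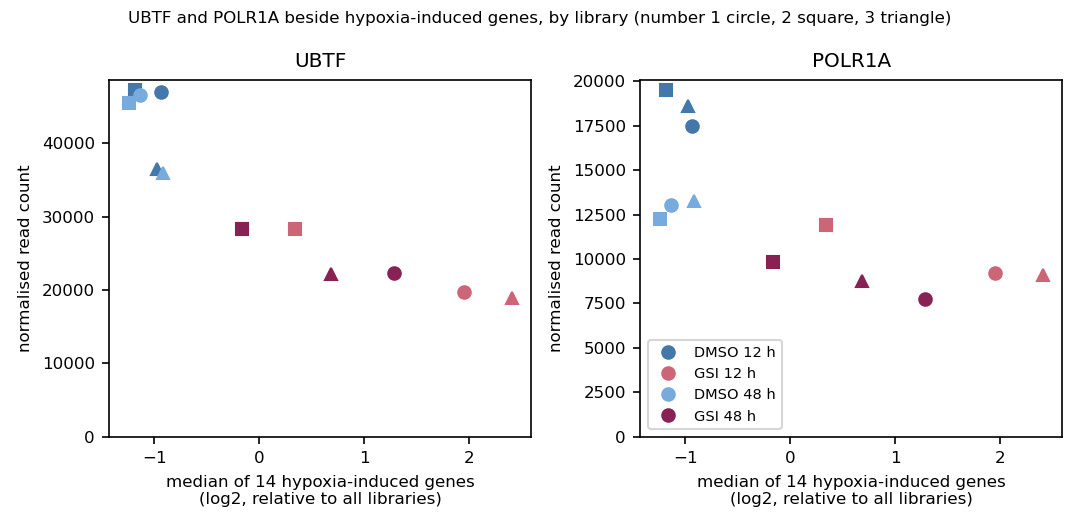
UBTF (left) and POLR1A (right) in normalised read counts against the median of 14 hypoxia-induced genes (log2, relative to all libraries), 1 point per library, coloured by labelled group with shapes for the library number. UBTF is at or above 35982 in all 6 DMSO libraries and at or below 28280 in all 6 GSI libraries, while POLR1A also separates DMSO 12 h from DMSO 48 h.

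RRN3 (ENSG00000085721) carries Pol I to the promoter and links it to SL1. It was at 10194, 12947 and 11528 normalised counts in the DMSO 12 h libraries, 9820, 12006 and 10726 in DMSO 48 h, 7534, 8897 and 9482 in GSI 12 h and 7651, 9309 and 8918 in GSI 48 h. The treatment groups did not overlap at either time, while the time points overlapped within each label. It fell at 12 h (log2 -0.42, SE 0.12, adjusted p = 0.0262), a call lost without DMSO 12 h number 2 or 3 or GSI 12 h number 1 (adjusted p up to 0.119). At 48 h the change of -0.33 was called only with the block (adjusted p = 0.0891 without and 0.00425 with it). The human genome holds near-identical copies of RRN3, so its reads may be split between them. Of the SL1 subunits TAF1A to TAF1D, which place Pol I at its start, TAF1D fell at 12 h (log2 -0.46, adjusted p = 0.0146) and between the DMSO groups (log2 -0.53, adjusted p = 0.0185). The 12 h call was lost without DMSO 12 h number 2 or GSI 12 h number 1 (adjusted p up to 0.0704). That between the DMSO groups was lost without DMSO 12 h number 2 or DMSO 48 h number 1 or 3 (adjusted p up to 0.0988). TAF1A was not called at 12 h (log2 -0.31, adjusted p = 0.0960), nor were TAF1B (-0.05, 95% interval -0.25 to 0.15) and TAF1C (-0.04, -0.25 to 0.17).

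Of the 10 Pol III subunits, 8 fell and POLR3GL rose in GSI 12 h, and POLR3B and POLR3C fell in GSI 48 h, where the block called 6, adding POLR3D, POLR3F, POLR3G and POLR3K. POLR3B (ENSG00000013503), which forms the active centre with POLR3A, was at 2457, 3011 and 2748 normalised counts in the DMSO 12 h libraries, 2040, 2439 and 2314 in DMSO 48 h, 1141, 1849 and 1573 in GSI 12 h and 1059, 1681 and 1439 in GSI 48 h. The treatment groups did not overlap at either time, the DMSO 48 h libraries lay just below those of DMSO 12 h, and the GSI time points overlapped. POLR3B fell 1.83-fold at 12 h (log2 -0.87, SE 0.18, adjusted p = 0.00763) and 1.65-fold at 48 h (log2 -0.72, adjusted p = 0.0315), the latter call lost without DMSO 48 h number 1, 2 or 3 or GSI 48 h number 1 or 3 (adjusted p up to 0.148). POLR3A (ENSG00000148606), the largest subunit, was at 7987, 8910 and 8678 normalised counts in the DMSO 12 h libraries, 7286, 7356 and 7967 in DMSO 48 h, 6468, 7486 and 6832 in GSI 12 h and 6151, 7036 and 6939 in GSI 48 h, with treatment groups that lay close but did not overlap at 12 h or 48 h. Its fall at 12 h (log2 -0.30, SE 0.09, adjusted p = 0.0289) was lost without DMSO 12 h number 2 or 3 or GSI 12 h number 1 or 3 (adjusted p up to 0.119), and under upper-quartile scaling (log2 -0.21, adjusted p = 0.0609). Whether POLR3A and POLR3B differ in the size of their fall was not tested.

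POLR3D and POLR3E form a dimer related to that of POLR1E and POLR1G. POLR3D (ENSG00000168495) was at 3784, 4974 and 4329 normalised counts in the DMSO 12 h libraries, 2683, 3111 and 2982 in DMSO 48 h, 2810, 3152 and 2866 in GSI 12 h and 2145, 2415 and 2306 in GSI 48 h. DMSO 12 h was above every other library, and the DMSO 48 h and GSI 12 h libraries overlapped. It fell at 12 h (log2 -0.56, SE 0.11, adjusted p = 0.00545) and between the DMSO groups (log2 -0.57, SE 0.11, adjusted p = 0.00941), the latter call lost without DMSO 12 h number 2 (adjusted p = 0.0531). At 48 h it was called with the block (0.00424) and not without (0.0557). POLR3E fell by 0.50 at 12 h and by 0.51 between the DMSO groups. Of the subunits that help open the promoter, POLR3C fell at both times (log2 -0.55, adjusted p = 0.00994 at 12 h and log2 -0.49, adjusted p = 0.0310 at 48 h) and POLR3F at 12 h (log2 -0.40, adjusted p = 0.0256). POLR3K, needed for RNA cleavage and termination, fell at 12 h (log2 -0.60, adjusted p = 0.0361). CRCP, of the stalk, was not called (log2 -0.26, adjusted p = 0.0513 at 12 h).

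POLR3G and POLR3GL are paralogues that take the same place in Pol III, POLR3G in stem and tumour cells and POLR3GL in most differentiated cells. At 12 h they were called in opposite directions. POLR3G (ENSG00000113356) was at 1228, 2023 and 1359 normalised counts in the DMSO 12 h libraries, 801, 1149 and 823 in DMSO 48 h, 823, 1057 and 635 in GSI 12 h and 522, 681 and 507 in GSI 48 h. POLR3GL (ENSG00000121851) was at 1850, 1847 and 2068 normalised counts in the DMSO 12 h libraries, 2218, 2443 and 2489 in DMSO 48 h, 2480, 2971 and 2344 in GSI 12 h and 2718, 2858 and 2523 in GSI 48 h. The mean of POLR3G was highest in DMSO 12 h and lowest in GSI 48 h, and for POLR3GL DMSO 12 h was below every other library.

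At 12 h POLR3G fell 1.83-fold (log2 -0.87, SE 0.22, adjusted p = 0.0171), and POLR3GL rose 1.35-fold (log2 0.43, SE 0.11, adjusted p = 0.0143). Without DMSO 12 h number 2 both calls were lost (POLR3G log2 -0.65, adjusted p = 0.0810, POLR3GL log2 0.40, adjusted p = 0.0583), and that of POLR3G also without GSI 12 h number 1 or 3 (adjusted p = 0.0591 and 0.0682). At 48 h POLR3G was called only with the block (0.00176, against 0.0657), and POLR3GL was not called (95% interval -0.05 to 0.41). Between the DMSO groups the block likewise called POLR3G (log2 -0.72, adjusted p = 0.00203, against 0.0941 without) and, within treatment, POLR3GL (log2 0.31, 0.00156). Between the GSI groups the block called POLR3G (log2 -0.54, 0.00980, against 0.249). Between GSI 48 h and DMSO 12 h both were called whichever library was left out, POLR3G at log2 -1.41, adjusted p = 5.29e-04 and POLR3GL at log2 0.49, adjusted p = 0.00361.

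The log2 ratio of POLR3G to POLR3GL needs no scaling between libraries. It was -0.59, 0.13 and -0.61 in DMSO 12 h, -1.47, -1.09 and -1.60 in DMSO 48 h, -1.59, -1.49 and -1.88 in GSI 12 h and -2.38, -2.07 and -2.31 in GSI 48 h. No DMSO library overlapped the GSI libraries of its time, and no 48 h library the 12 h libraries of its label. The mean ratio was lower by 1.30 in GSI than in DMSO at 12 h, and the signed differences for the other comparisons were -0.87 at 48 h, -1.03 over time in DMSO, -0.60 over time in GSI and -1.90 between GSI 48 h and DMSO 12 h. An exact two-sided permutation test gave p = 0.1 for each of the 5 comparisons, also after Benjamini-Hochberg adjustment, which is the smallest that 3 against 3 libraries allow. The ratio was lower in 3 of 3 pairs of equal number in each comparison, which follows from the lack of overlap and adds no evidence. Per kilobase of exon (GENCODE 29), POLR3GL was the more abundant of the pair in every group, at 1068 ± 70.4 normalised counts per kilobase against 382 ± 106 for POLR3G in DMSO 12 h and 1501 ± 93.4 against 142 ± 24.0 in GSI 48 h (SD, n = 3).

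**Figure D4:**
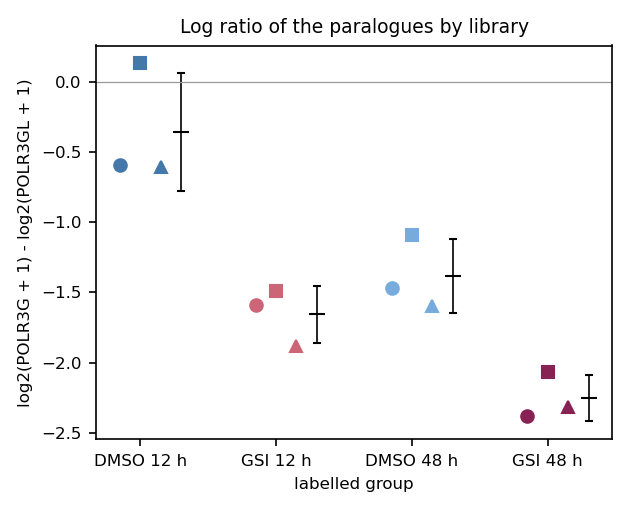
Log2 ratio of POLR3G to POLR3GL by labelled group (x axis), 1 point per library with its shape giving the library number, and the mean ± SD of 3 libraries as a bar beside the points. The means, listed from high to low, are -0.36 in DMSO 12 h, -1.38 in DMSO 48 h, -1.65 in GSI 12 h and -2.25 in GSI 48 h.

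Of the 10 Pol III initiation factors 5 fell in GSI 12 h: BDP1, GTF3A, GTF3C2, GTF3C4 and GTF3C6. GTF3C2 and GTF3C6 also fell in GSI 48 h, where the block called 5, adding BDP1, GTF3A and GTF3C4. TFIIIB, the factor that holds Pol III on the gene, is made of BDP1, TBP and either BRF1 or BRF2. BDP1 (ENSG00000145734) was at 16129, 16200 and 15528 normalised counts in the DMSO 12 h libraries, 14212, 14668 and 13957 in DMSO 48 h, 12120, 12409 and 13112 in GSI 12 h and 11848, 13506 and 12626 in GSI 48 h. Its treatment groups did not overlap at either time. It had a small fall at 12 h (log2 -0.35, SE 0.07, adjusted p = 0.00756) that kept its call whichever library was left out. At 48 h it was called with the block only (log2 -0.18, adjusted p = 0.130 without, 0.0485 with).

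BRF1 (ENSG00000185024), used at tRNA and 5S genes, was at 7235, 7794 and 6818 normalised counts in the DMSO 12 h libraries, 7136, 6645 and 6603 in DMSO 48 h, 6121, 6630 and 5971 in GSI 12 h and 6039, 6109 and 5871 in GSI 48 h. Its treatment groups lay close together without overlap at 12 h and 48 h, and it was not called at 12 h (log2 -0.22, adjusted p = 0.0619) or 48 h (log2 -0.18, adjusted p = 0.155). BRF2 (ENSG00000104221), used at genes such as that of U6 RNA, was at 1009, 1094 and 1304 normalised counts in the DMSO 12 h libraries, 965, 940 and 1166 in DMSO 48 h, 796, 1020 and 935 in GSI 12 h and 698, 932 and 879 in GSI 48 h, and its treatment groups overlapped at 12 h. It too was called in neither (log2 -0.31, adjusted p = 0.153 at 12 h and log2 -0.30, adjusted p = 0.201 at 48 h). Between GSI 48 h and DMSO 12 h both were called lower (log2 -0.28, adjusted p = 0.0174 and log2 -0.44, adjusted p = 0.0352), calls lost for both without DMSO 12 h number 2 or GSI 48 h number 3, and for BRF2 also without DMSO 12 h number 3 or GSI 48 h number 1 (adjusted p up to 0.0837 for BRF1 and 0.158 for BRF2). Upper-quartile scaling ended both (log2 -0.15, adjusted p = 0.131 and log2 -0.32, adjusted p = 0.0995).

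TFIIIC, built from GTF3C1 to GTF3C6, recognises the promoter inside tRNA genes, and 3 of its 6 subunits fell in GSI 12 h. GTF3C6 (ENSG00000155115), the smallest, was at 6439, 8420 and 6686 normalised counts in the DMSO 12 h libraries, 5325, 6474 and 5573 in DMSO 48 h, 3440, 5347 and 2795 in GSI 12 h and 2938, 4322 and 2862 in GSI 48 h. The GSI libraries numbered 2 stood above their companions at both times, and the groups still did not overlap. GTF3C6 fell 1.92-fold at 12 h (log2 -0.94, SE 0.21, adjusted p = 0.0102) and 1.74-fold at 48 h (log2 -0.80, adjusted p = 0.0358), the latter call lost without DMSO 48 h number 1, 2 or 3 or GSI 48 h number 1 or 3 (adjusted p up to 0.152) or with no filter on low values. GTF3C2 and GTF3C4 had smaller estimated falls at 12 h (log2 -0.31, adjusted p = 0.0191 and log2 -0.45, adjusted p = 0.00785). Upper-quartile scaling over genes kept ended the call of GTF3C2 at 12 h (log2 -0.22, adjusted p = 0.0617) and at 48 h (log2 -0.22, adjusted p = 0.0868). Leaving out 1 library ended it at 12 h without DMSO 12 h number 2 or GSI 12 h number 1 or 3 (adjusted p up to 0.0685) and at 48 h without DMSO 48 h number 1, 2 or 3 or GSI 48 h number 1 or 3 (adjusted p up to 0.143). GTF3C1 and GTF3C3 were called in none of the 5 comparisons by limma without a block, with 95% intervals at 12 h of -0.28 to 0.11 and -0.15 to 0.31.

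GTF3C5 (ENSG00000148308), another TFIIIC subunit, had its highest mean in GSI 48 h. It was at 26681, 23774 and 21269 normalised counts in the DMSO 12 h libraries, 29224, 30336 and 24292 in DMSO 48 h, 28214, 28344 and 21321 in GSI 12 h and 29535, 32400 and 29755 in GSI 48 h. The number 3 library was the lowest of 3 in DMSO 12 h, DMSO 48 h and GSI 12 h, and the 12 h groups overlapped. Its rise between DMSO 12 h and GSI 48 h (log2 0.36, SE 0.12, adjusted p = 0.0398) was lost without any 1 of DMSO 12 h number 2 or 3 or GSI 48 h number 1, 2 or 3 (adjusted p up to 0.143), and under upper-quartile scaling over all genes with a read (log2 0.29, adjusted p = 0.0705). With the block within treatment it was also called higher over time in DMSO (log2 0.22, adjusted p = 0.0290) and in GSI (0.25, 0.0197). GTF3A, which binds the 5S gene, fell at 12 h with an adjusted p near the threshold (log2 -0.45, adjusted p = 0.0465), and lost the call under upper-quartile scaling (log2 -0.36, adjusted p = 0.0636). It was also lost in 8 of the 12 fits that left out 1 library, those without DMSO 12 h number 2 or 3 or GSI 12 h number 1 or 3 or DMSO 48 h number 1, 2 or 3 or GSI 48 h number 3 (adjusted p up to 0.175), and the estimate was -0.29 without GSI 12 h number 3.

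MAF1 (ENSG00000179632), the repressor that holds Pol III off its genes when nutrients or growth signals are short, was at 7108, 8491 and 7674 normalised counts in the DMSO 12 h libraries, 6538, 7615 and 7525 in DMSO 48 h, 7314, 8206 and 7346 in GSI 12 h and 7207, 7452 and 7753 in GSI 48 h. All 4 groups overlapped in range. The change was -0.02 at 12 h (95% interval -0.22 to 0.18), 0.05 at 48 h (-0.15 to 0.25) and -0.05 between GSI 48 h and DMSO 12 h (-0.25 to 0.15). MAF1 is known to act through its phosphorylation, which was not measured.

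**Figure D5:**
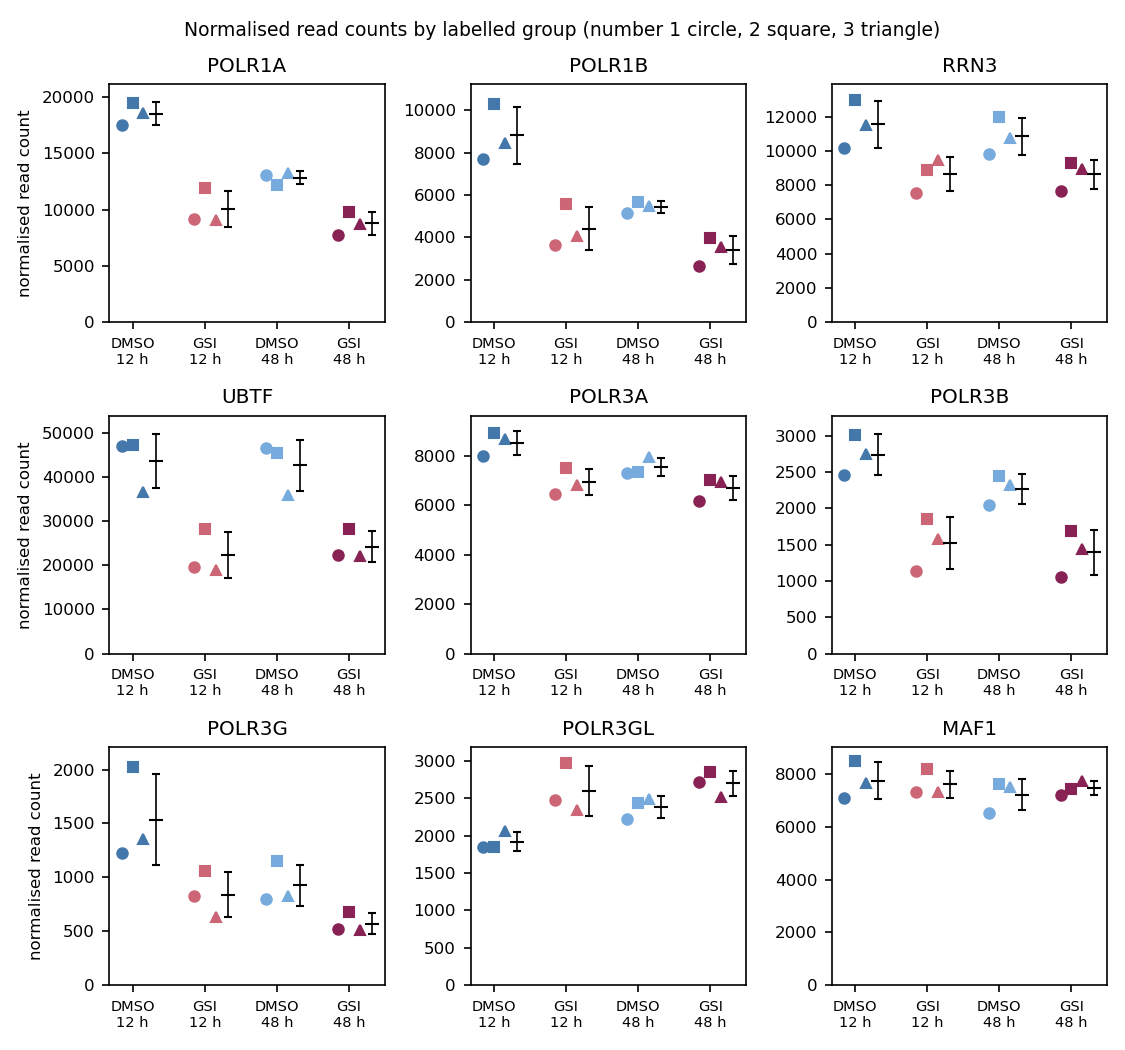
Normalised read counts of 9 members by labelled group, 1 point per library (circle, square and triangle for numbers 1, 2 and 3) and the mean ± SD of 3 libraries beside them, each axis starting at 0. UBTF separates by treatment label while its time points overlap. The means of POLR1A and POLR1B are, from high to low, in the order DMSO 12 h, DMSO 48 h, GSI 12 h and GSI 48 h. POLR3G and POLR3GL are called in opposite directions at 12 h and the MAF1 groups overlap.

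A further 24 genes of the same pathways that are not members, among them nucleolar factors, were measured alongside. At 12 h 10 fell and 2 rose, with a median of -0.26. The smallest adjusted p belonged to MYBBP1A, a nucleolar protein (log2 -1.07, adjusted p = 0.00144), DDX21, a nucleolar helicase (log2 -1.01, adjusted p = 0.00193), NOLC1, a nucleolar chaperone (log2 -0.95, adjusted p = 0.00403), and POLRMT, the mitochondrial RNA polymerase (log2 -0.53, adjusted p = 0.00674). Those that rose were NOP53, a ribosome assembly factor (log2 0.47, adjusted p = 0.0314), and SNAPC3, a subunit of the complex that recognises U6-type promoters (log2 0.46, adjusted p = 0.0349). At 48 h 4 were called, all lower, namely MYBBP1A, DDX21, LARP7 and NCL, with a median of -0.24. Over time 3 fell in DMSO (MYBBP1A, DDX21 and NOLC1) and 1 in GSI, SNAPC1 (log2 -0.34, adjusted p = 0.0422). TBP, which both polymerases need, was not called at 12 h (log2 -0.14, adjusted p = 0.252) or 48 h (log2 -0.15, adjusted p = 0.251). Of the short RNAs that Pol III makes, VTRNA1-1, RNY1 and RNY3 had a row in the table and none passed the filter on low values, so the output of Pol III is not described.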

How the data were processed

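Polyadenylated RNA was measured in 12 libraries of CUTLL1, 3 in each of 4 labelled groups. The table deposited by the authors holds a signal for 62069 Ensembl identifiers: each library's read counts over its own size factor. FastQC 0.10.1, TopHat2 2.0.10, HTSeq 0.6.1, DESeq2 and the build hg19 are named per the submitters' processing notes. The annotation and whether strand was used were not given in the sources used here, so reads of overlapping or antisense genes cannot be told apart.

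A gene was kept if 3 or more libraries held a value of 10 or more, which left 19281. The test was limma 3.58.1 (R 4.3.3, trended prior) on log2(value + 1), a scale that understates changes of low genes. It was fitted to all 12 libraries with 1 mean per group and no replicate term. The threshold was an adjusted p of 0.05 (Benjamini-Hochberg) over every gene kept, and SE is limma's moderated standard error. In each library 100% of values were whole multiples of the value of 1 read, within a tolerance of 0.01. On these recovered reads edgeR 4.0.16 called 4201 genes at 12 h, 1919 at 48 h, 931 over time in DMSO, 740 over time in GSI and 6556 between GSI 48 h and DMSO 12 h. DESeq2 1.42.0 was run on them too. The limma step was tested on simulated data. The smallest member value, 267 normalised counts, was far above the filter.

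Deviations from the group means correlated between libraries of equal number by 0.545 to 0.612 in the DMSO groups, 0.400 to 0.545 in the GSI groups and 0.103 to 0.157 between the treatments at 48 h, so numbers were taken to pair these libraries (every pair above 0.1). They were not taken to do so between the treatments at 12 h (0.0676 to 0.272) or between DMSO 12 h and GSI 48 h (0.0991 to 0.197). The rule rests on the lowest pair, and the ranges between the treatments at 12 h and 48 h overlapped. The replicate block fitted 1 term per number over all 12 libraries, so it assumed the same numbering in every group.

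The members and the other gene lists were chosen with earlier results of these data known. Named members with values in every library were POLR1A, POLR1B, UBTF, RRN3, POLR3A, POLR3B, POLR3G, POLR3GL, BRF1, BRF2, BDP1 and MAF1, with the 3 called members of largest rise and of largest fall in each comparison, and up to 4 genes of smallest p from the other lists. In the list of further pathway genes, 1 gene is not reported here. The comparison of GSI 48 h with DMSO 12 h, the motifs TGGGAA and GGTTCGA, and the group means of POLR1D were added after values were seen, as were TBP, MYC and NRARP as named genes. Promoters came from RefSeq on GRCh38.p14, a later build than the authors', and were used for sequence only. Exon lengths came from GENCODE 29. Alternatives were other pseudocounts, no filter, other scalings, only the groups compared, a replicate block, edgeR, DESeq2 and leaving out each library.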

Additional observations from a re-analysis of the deposited data

How the results depend on the processing

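Counts of members called that moved by over 1.5 times were, at 48 h (8 as reported), 16 with upper-quartile scaling over all genes with a read, 13 with only the groups compared, 24 with the replicate block, 20 without both GSI libraries numbered 2 and 15 with DESeq2. Of all genes these settings called 2535, 2467, 5261, 4042 and 3231 at 48 h, against 1866 as reported. Over time in DMSO (6) the member counts were 13 with the replicate block, 27 with the block within treatment and 10 with DESeq2. Over time in GSI (0) they were 7, 16 and 2. Of all genes 2368, 5622 and 1568 were called over time in DMSO, against 874, and 1941, 5544 and 1257 in GSI, against 768. For the difference of the treatment effects (0) the block within treatment gave 1 member, against 1177 of all genes. The median between GSI 48 h and DMSO 12 h moved from -0.53 to -0.40 under upper-quartile scaling. At 12 h, where the numbers did not meet the rule for pairing, the replicate block called 31 members, against 25. Of all genes it called 6951 at 12 h, against 4144. Leaving out each library in turn gave 13 to 28 calls at 12 h, 0 to 17 at 48 h, 1 to 7 over time in DMSO, 0 over time in GSI, 25 to 33 between GSI 48 h and DMSO 12 h and 0 for the difference. Medians then ran from -0.47 to -0.34, -0.37 to -0.23, -0.27 to -0.17, -0.19 to -0.03 and -0.58 to -0.49 in the same order of comparisons, and the differences in the log2 ratio of POLR3G to POLR3GL from -1.42 to -1.06, -0.98 to -0.72, -1.18 to -0.79, -0.71 to -0.52 and -2.02 to -1.66. The cause of these moves was not tested. Of 4480 values for single members in 5 comparisons, 4169 stayed on their side of the threshold, 154 lost a call, 157 gained one and 0 called values changed sign. All 8, 6 and 25 calls at 48 h, over time in DMSO and at 12 h were also made with the replicate block.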
